A study of Homo sapiens with 6 samples.

Results

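Interferon-stimulated genes are the genes that cells switch on when an interferon binds its receptor. The members were chosen by name, with earlier results of these data known. They are a list of 57 gene symbols covering receptors, transcription factors, sensors and antiviral effectors. Some are parts of the pathway itself, such as IFNGR1, IFNAR1 and IRF3, so not every member need be switched on by interferon. All 57 were present among the 27685 genes of the count table. The cells were Caco-2, an established line from a human colon tumour that resembles enterocytes once it differentiates. RNA sequencing of polyA RNA compared 3 vector control libraries, from mock transfection with pcDNA3 (genotype WT in the labels), with 3 libraries labelled hFABP1as (genotype FABP1_knockdown, FABP1 antisense in the plots). FABP1 encodes a fatty acid carrier of the cytosol. All cells were grown in the same medium with fetal bovine serum, and the labels give no interferon or other treatment. The number of transfected lines or clones behind a group is not in the labels, so a difference between lines and an effect of the construct cannot be told apart.

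Interferons act in a relay. A virus-infected cell detects foreign RNA through sensors such as RIG-I and MDA5, and foreign DNA through other sensors. It then secretes interferon, which binds receptors on the same and on neighbouring cells. The type I receptor (IFNAR1 with IFNAR2) and the type III receptor lead to a complex with STAT2 and IRF9 that binds the interferon-stimulated response element (ISRE) in promoters. The type II receptor (IFNGR1 with IFNGR2) acts through another promoter element, the gamma-activated site (GAS). In gut epithelium type III interferon is the main antiviral interferon, and many of the induced genes also have a low level without any interferon.

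Total counts ran from 40351394 to 57979037 per library. FABP1 itself was not lower in the libraries labelled hFABP1as, with 134, 147 and 122 CPM against 138, 102 and 121 CPM in the vector control (CPM being TMM-scaled read counts relative to library size), a log2 fold change of 0.16 (SE 0.12, adjusted p = 0.268), so the second group goes by its label here. The strand setting of the counting is not known, so this count may include RNA of the antisense construct, and FABP1 protein was not analysed here. The floor used below, 3 counts summed over the libraries of a group, was 0.0212 CPM for the vector control and 0.0211 for the other group. Of 10 intestinal epithelial markers none was under 1 CPM in both groups, and their summed level ran from 14662 to 17976 CPM for the vector control and from 16477 to 19372 CPM for the other group. Within that list 5 were higher and 2 (KRT19 and VIL1) lower: KRT20 went from 0.587 ± 0.0882 to 5.35 ± 0.681 CPM, CDH17 from 320 ± 21.2 to 797 ± 17.5 CPM and CDX2 from 77 ± 5.39 to 164 ± 12.4 CPM (SD, n = 3), and CDH1 and KRT18 rose by under 1.3-fold. Of 13 leukocyte markers 7 had 0 counts in every library, PTPRC (CD45), MS4A1 and NKG7 among them, while their summed level ran from 44.4 to 48.6 CPM for the vector control and from 63.9 to 67.2 CPM for the other group, with LYZ, CD68 and CSF1R higher and CD14 lower. Among 8 fibroblast markers 3 were at 0 and the sums were 39.4 to 42.3 and 31.5 to 35.6 CPM, which hold opposite changes of single genes: LUM went from 0.133 ± 0.0873 to 18.1 ± 1.87 CPM and COL3A1 from 2.68 ± 0.268 to 4.34 ± 0.528 CPM, while PDGFRA went from 22.7 ± 3.49 to 0.386 ± 0.285 CPM and PDGFRB from 6.69 ± 1.18 to 3.06 ± 0.255 CPM. Among 5 endothelial markers 3 were at 0 and the sums were 0.833 to 1.42 and 2.39 to 2.67 CPM. The part of these markers' levels in the results below was not tested. Separate cultures are not named in the labels, so the p-values rest on a spread between libraries that may be technical.

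Promoters are shown before the values because many of the members, though not all, carry the same regulatory element. RefSeq promoter windows (GRCh38.p14, 250 bases before and 50 after the annotated start) were found for 45 of the 57 members. The ISRE core (GAAA, any bases NN, then GAAA), searched on both strands, was present in 27 of these 45 windows (60.0%), against 3.65% of 27305 promoters in the table and 2.61% of 11490 promoters of tested genes. The GAS core TTCNNNGAA, whose pattern reads the same on both strands, was present in 11 of 45 (24.4%), against 7.88% of all promoters. A match describes letters in a window and does not show binding. The 250 bases upstream of the start are given for the 3 ISRE-bearing members with the largest differences between the groups at a mean of at least 1 on the log2 CPM scale, with matches to the ISRE core in capitals. They are those of GBP1 (chr1:89065209-89065458, minus strand) and IFIT3 (chr10:89327747-89327996, plus strand), which were higher in the libraries labelled hFABP1as, and EPSTI1 (chr13:42992242-42992491, minus strand), which was lower.
GBP1: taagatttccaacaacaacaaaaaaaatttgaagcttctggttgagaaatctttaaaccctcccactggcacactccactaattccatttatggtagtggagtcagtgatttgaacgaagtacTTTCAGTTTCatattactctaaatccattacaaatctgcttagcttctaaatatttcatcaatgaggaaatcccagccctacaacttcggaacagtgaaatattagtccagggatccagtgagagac
IFIT3: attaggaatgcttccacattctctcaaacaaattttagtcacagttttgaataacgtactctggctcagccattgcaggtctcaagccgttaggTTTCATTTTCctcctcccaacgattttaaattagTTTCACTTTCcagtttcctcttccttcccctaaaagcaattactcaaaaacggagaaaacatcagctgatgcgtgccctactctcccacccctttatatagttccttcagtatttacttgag
EPSTI1: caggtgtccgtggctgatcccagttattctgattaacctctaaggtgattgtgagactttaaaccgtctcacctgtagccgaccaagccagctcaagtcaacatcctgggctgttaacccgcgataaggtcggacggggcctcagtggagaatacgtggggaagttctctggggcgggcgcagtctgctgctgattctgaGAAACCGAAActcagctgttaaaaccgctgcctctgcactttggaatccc

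Windows of 30 bases around 1 match each show the same core in members that were higher, lower or silent, chosen after their values were seen. They are HERC5 (chr4:88457035-88457064, plus strand), at 0 counts in the vector control, ISG15 (chr1:1013380-1013409, plus strand) and IFI6 (chr1:27672266-27672295, minus strand), both lower in the libraries labelled hFABP1as, and IFI44L (chr1:78620365-78620394, plus strand), at 0 counts in all 6 libraries.
HERC5: aaacattatgTTTCGTTTTCcactggagct
ISG15: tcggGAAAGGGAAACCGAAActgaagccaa
IFI6: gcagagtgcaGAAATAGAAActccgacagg
IFI44L: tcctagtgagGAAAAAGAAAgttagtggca

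Matches were present in 16 of 23 windows of members that rose, 5 of 8 of members that fell, 3 of 7 of members that did not pass the test and 3 of 7 of members too low to be tested. IFIH1, IFIT5, HERC5 and IFI6 held 3 matches each. In the map of match positions the matches began between 164 bases before and 23 bases after the start, with those of TRIM21, GBP3 and MX1 after it. The OAS1 window held no match.

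**Figure D1:**
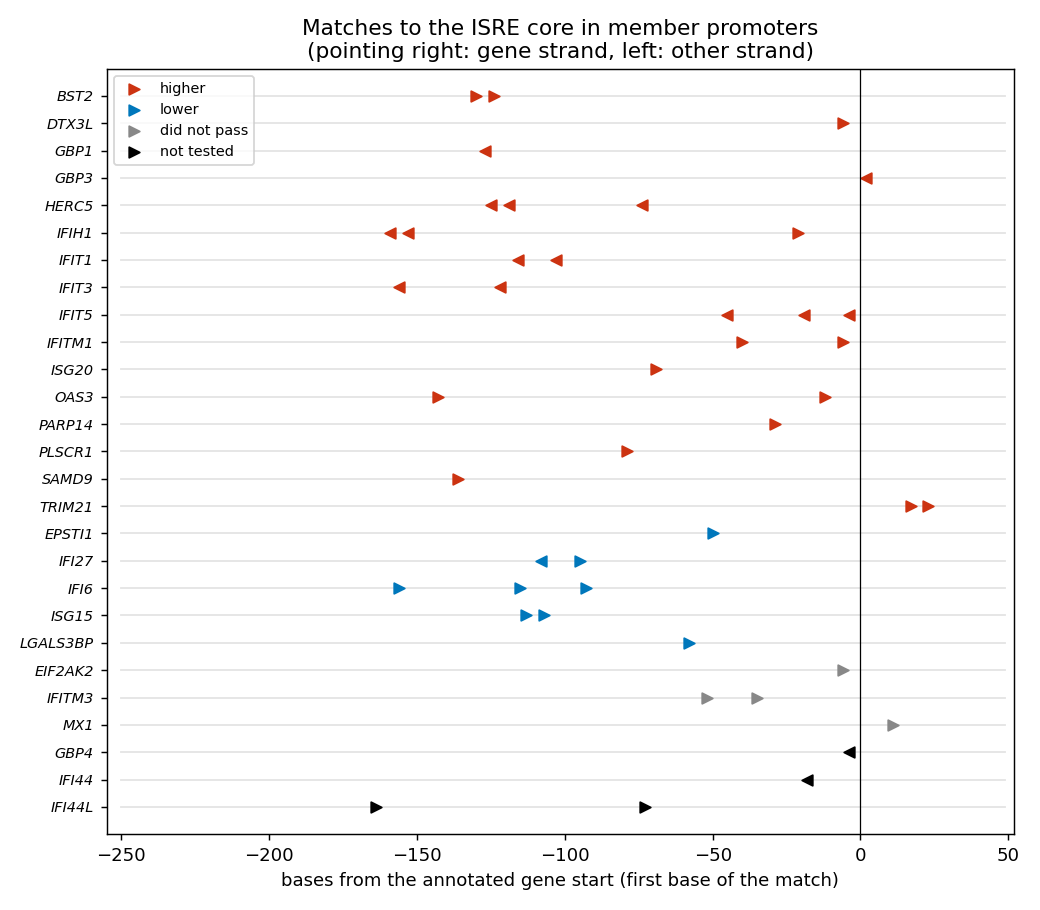
Position of each match to the ISRE core, as bases from the annotated gene start, in the 27 member promoters that hold it. Triangles pointing right are matches on the gene's strand and those pointing left on the other strand, and colours give the outcome of the test. Matches occur in members that were higher (16 genes), lower (5), did not pass (3) or were not tested (3).

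The members spanned the whole range from silent to abundant. A set of 21 members was at 10 CPM or more in both groups, 18 were under 1 CPM in both, and the other 18 lay between these or differed across them. GBP4, IFI44 and IFI44L had 0 counts in all 6 libraries, which allows a level of up to 0.0212 CPM (vector control) and 0.0211 CPM (hFABP1as). Compared per kilobase of transcript, the most abundant member in the vector control was LGALS3BP, a secreted glycoprotein, at 104 ± 11.0 CPM per kilobase (SD, n = 3). IFNGR1 (65.8 ± 3.46), BST2 (57.3 ± 7.85), ADAR (48.7 ± 2.47) and IRF3 (43.5 ± 4.27 CPM per kilobase) came next, and from IFNGR1 on each gene overlapped the next in the order in single libraries. In the libraries labelled hFABP1as BST2 came before LGALS3BP, at 78.9 against 57.5 CPM per kilobase. OAS1 moved from rank 23 to rank 10 of the 57 and ISG15 from rank 10 to rank 23.

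**Figure D2:**
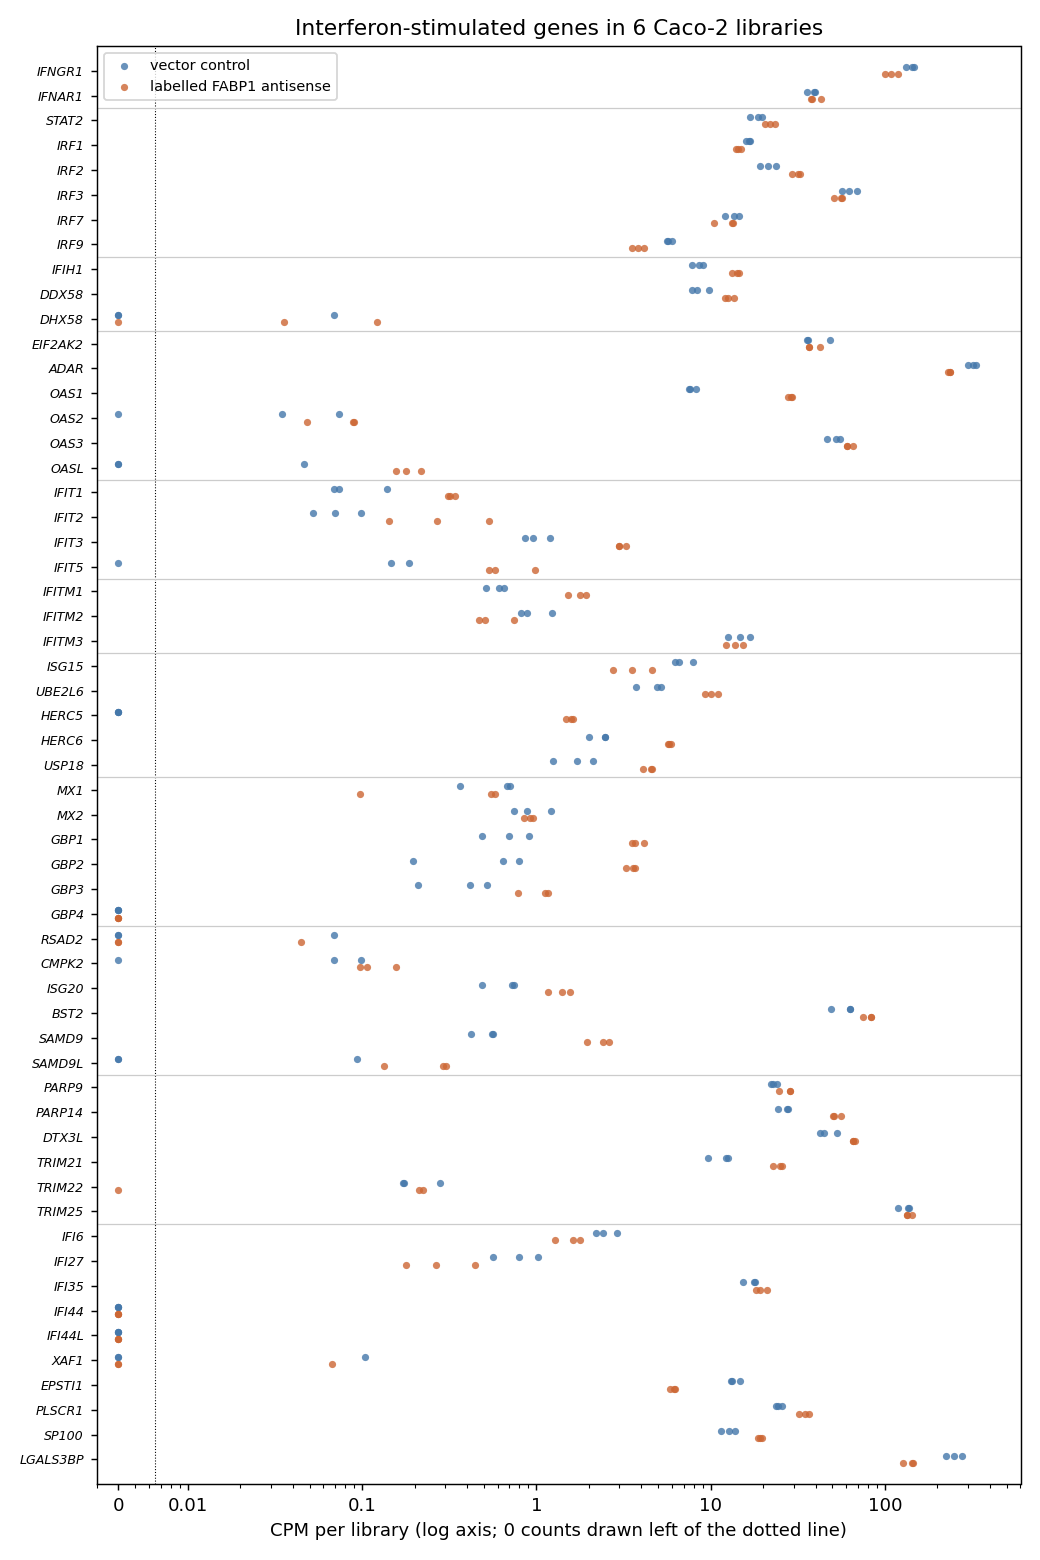
CPM of each of the 57 members in each library, on a log axis, ordered by role (grey lines). Blue points are the 3 vector control libraries and orange points the 3 libraries labelled hFABP1as, and points left of the dotted line are 0 counts. OAS1, HERC5, GBP1, GBP2 and SAMD9 show the groups well apart, while GBP4, IFI44 and IFI44L sit at 0 throughout.

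After the filter on low counts 45 members were tested and 12 were not. Of the 45, 26 were higher in the libraries labelled hFABP1as, 8 were lower and 11 did not pass (quasi-likelihood test of edgeR, p-values adjusted by Benjamini-Hochberg over all 14640 tested genes, threshold 0.05). That is 75.6% called, 57.8% higher and 17.8% lower, where over all tested genes 55.0% were called, 27.7% higher and 27.3% lower. The list was chosen with earlier results of these data known, so these shares only describe it. The groups did not overlap for 38 of the 45 members, and for 62.7% of all tested genes. A change of at least 2-fold was found upward in 15 of the 45 tested members and downward in 2, beside 8.80% and 6.12% of all tested genes. The median log2 fold change was 0.46 over the tested members and 0.01 over all tested genes, and it was 0.46 with HERC5 at its lower bound. The filter can pass a gene through 1 group alone, which was so for 7 members (IFIT1, IFIT5, HERC5, GBP2 and GBP3, higher, IFI27, lower, and MX1, which did not pass). All of these but MX1 are among the members that changed by at least 2-fold. Among the 38 that reached the filter's level in both groups, 21 were higher and 7 lower. Of the 15 members at least 2-fold higher, 14 were under 10 CPM in the vector control and 11 under 2 CPM. Of the 21 members at 10 CPM or more in both groups, 10 rose and 3 fell, and 1 of them (TRIM21) changed by 2-fold or more.

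**Figure D3:**
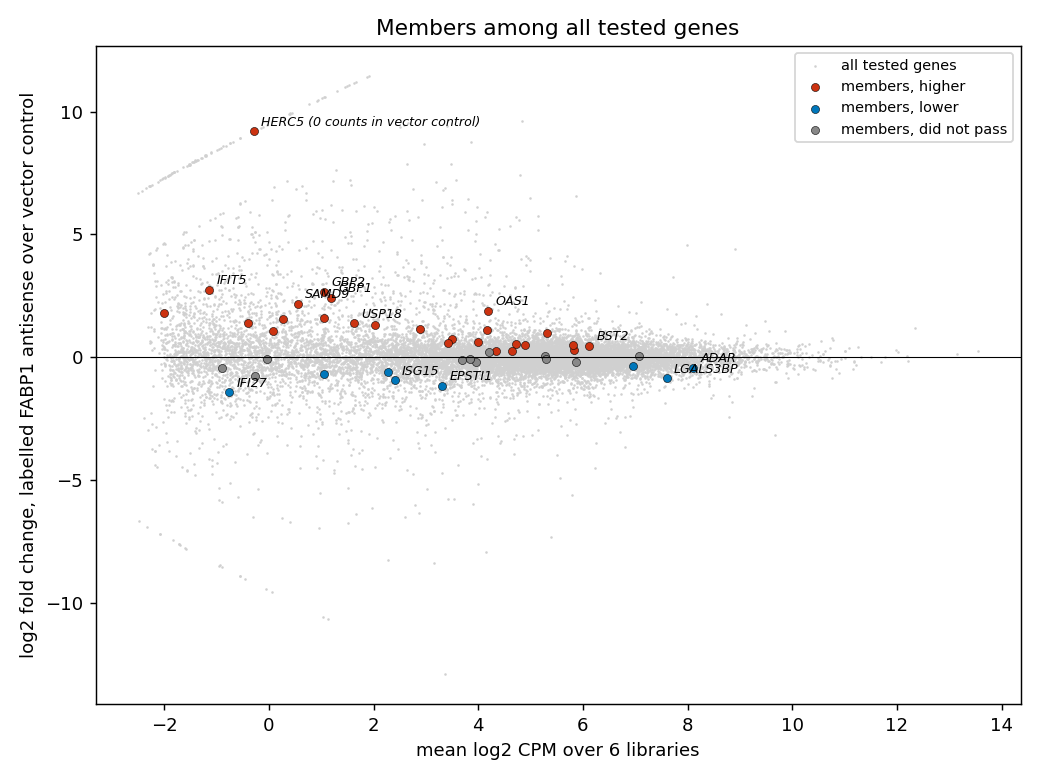
Log2 fold change of the libraries labelled hFABP1as over the vector control against mean log2 CPM, for all 14640 tested genes (grey) and the 45 tested members (26 higher in red, 8 lower in blue, 11 that did not pass in dark grey). Members with large rises lie at low to middle levels, and the 4 members at 100 CPM or more in both groups lie between -0.85 and 0.06. The fitted value of HERC5, which had 0 counts in the vector control, is no estimate of size.

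Of the 2 receptor chains on the list 1 fell, where 27.3% of all tested genes fell. IFNGR1, the ligand-binding chain of the type II receptor, was at 146, 144 and 132 CPM in vector control libraries 2, 3 and 4 (numbers as in the column headers) and at 109, 100 and 118 CPM in the libraries labelled hFABP1as. All 3 of the latter were lower, and the log2 fold change was -0.37 (SE 0.08, adjusted p = 0.00474). IFNAR1, a chain of the type I receptor, did not pass, at 38.1 ± 2.1 and 39.5 ± 3.0 CPM (SD, n = 3), with a log2 fold change of 0.05 (95% interval -0.14 to 0.24).

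The transcription factors split. IRF9, the DNA-binding part of the complex with STAT2, was at 5.64, 6.0 and 5.73 CPM in the vector control and at 3.81, 4.16 and 3.55 CPM in the other group, a log2 fold change of -0.59 (SE 0.12, adjusted p = 0.00312). IRF2, which competes with IRF1 for the same promoter element, was at 23.9, 19.3 and 21.3 CPM against 32.4, 29.3 and 31.6 CPM and rose by 0.53 on the log2 scale (SE 0.09, adjusted p = 0.00149). STAT2, the partner of IRF9, rose from 18.5 ± 1.41 to 22 ± 1.43 CPM (SD, n = 3; log2 fold change 0.25, adjusted p = 0.0407). That call was lost in 7 of 12 alternative fits, including those without vector control library 2 (adjusted p = 0.167) or 3 (0.0689) and those without hFABP1as-labelled library 2 (0.102) or 3 (0.134). IRF1 (-0.19), IRF3 (-0.20) and IRF7 (-0.12), the factor of the type I interferon feedback loop, did not pass on the log2 scale. IRF3 fell at adjusted p = 0.0258 without vector control library 3.

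Of the 3 RNA sensors 2 were tested and both rose, where 27.7% of all tested genes rose. IFIH1, which encodes the sensor MDA5 for long double-stranded RNA, was at 9.03, 8.62 and 7.85 CPM in the vector control and at 14.3, 13.2 and 14.6 CPM in the other group. The groups did not overlap, and the level was 1.65-fold higher (log2 fold change 0.72, SE 0.09, adjusted p = 0.000238). DDX58, which encodes the sensor RIG-I for RNA with a 5′ triphosphate, rose 1.48-fold, from 8.66 ± 1.01 to 12.8 ± 0.720 CPM (SD, n = 3; SE 0.11 on the log2 scale, adjusted p = 0.00204). DHX58, the regulator LGP2 of both, had 4 and 7 counts over the groups and was not tested.

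Among enzymes of double-stranded RNA, OAS1 stood out by size. The OAS enzymes make 2′,5′-linked oligoadenylates that activate an RNA-degrading enzyme. OAS1 was at 7.61, 7.54 and 8.27 CPM in the vector control and at 27.8, 29.4 and 29 CPM in the libraries labelled hFABP1as. Every library of the second group lay above 27 CPM and every library of the first under 9, a 3.68-fold difference (log2 fold change 1.88, SE 0.08, adjusted p = 2.77e-07). OAS3, its neighbour in the gene order, rose from 51.6 ± 4.50 to 62.5 ± 3.06 CPM (SD, n = 3; 0.28, 95% interval 0.09 to 0.47, adjusted p = 0.0209), an interval that does not reach that of OAS1 (1.70 to 2.06). The OAS3 call was lost without vector control library 2 (adjusted p = 0.0794), without hFABP1as-labelled library 3 (0.0847) and with a block on the library numbers (0.0505). OAS2, the third gene of the cluster, had 5 and 11 counts over the groups, and OASL, a family member without that enzyme activity, had 2 and 26 (12.9 times, counting interval 3.24 to 112). ADAR, which edits adenosine in double-stranded RNA, fell by 0.44 (SE 0.06, adjusted p = 0.000507), from 318 ± 16.1 to 235 ± 3.62 CPM. EIF2AK2, the kinase PKR that halts translation, did not pass at 40.2 ± 7.11 and 38.6 ± 3.48 CPM (SD, n = 3).

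Products of the IFIT genes bind foreign RNA ends. Of the 4 genes 3 were tested, and these 3 rose from about 1 CPM or less, where 27.7% of all tested genes rose. IFIT1 and IFIT5 reached the filter's level only in the libraries labelled hFABP1as. IFIT3 was at 0.955, 1.20 and 0.862 CPM in the vector control and at 2.96, 2.97 and 3.25 CPM in the other group, 3.05-fold higher (log2 fold change 1.61, SE 0.20, adjusted p = 0.000174). IFIT5 was at 0, 0.147 and 0.186 CPM against 0.534, 0.581 and 0.978 CPM (log2 fold change 2.74, SE 0.72, adjusted p = 0.0106), and IFIT1 at 0.0942 ± 0.0395 against 0.324 ± 0.0140 CPM (1.78, SE 0.46, adjusted p = 0.0102; SD, n = 3). The IFIT5 value was 2.05 without vector control library 2 and 3.40 without vector control library 4, and the IFIT1 call was lost with DESeq2 (adjusted p = 0.0639). IFIT2 was too low to be tested, with 3, 4 and 3 counts in the vector control and 22, 12 and 8 in the other group, a ratio of 4.18 (counting interval 2.06 to 9.33). The groups did not overlap for any of the 4, as for 62.7% of all tested genes, and none of the 4 reached 4 CPM.

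IFITM proteins block the entry of enveloped viruses, and their genes lie side by side on chromosome 11. IFITM1 was at 0.608, 0.514 and 0.652 CPM in the vector control and at 1.92, 1.79 and 1.53 CPM in the other group, 2.93-fold higher (log2 fold change 1.55, SE 0.24, adjusted p = 0.000640). IFITM2 gave 0.977 ± 0.225 and 0.575 ± 0.150 CPM and did not pass (-0.76, 95% interval -1.46 to -0.05, adjusted p = 0.0656). IFITM3, the most abundant of them per kilobase, did not pass at 14.7 ± 2.09 and 13.8 ± 1.61 CPM (-0.09, 95% interval -0.38 to 0.20; SD, n = 3). These genes are related copies whose likeness in sequence was not measured here. A read may fit more than 1 of them, so their values are uncertain.

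ISG15 and the genes around it moved in opposite directions. ISG15 encodes a ubiquitin-like protein that is attached to other proteins, UBE2L6 the enzyme that conjugates it, HERC5 the main human ligase and USP18 the protease that removes it and also dampens the type I receptor. ISG15 was at 6.60, 6.27 and 7.92 CPM in the vector control and at 4.61, 3.53 and 2.74 CPM in the other group, a fall by 0.94 on the log2 scale (SE 0.19, adjusted p = 0.00327). UBE2L6 went the other way, from 5.16, 3.75 and 4.91 CPM to 11.0, 10.0 and 9.28 CPM, 2.18-fold higher (log2 fold change 1.13, SE 0.14, adjusted p = 0.000197). USP18 rose 2.60-fold, from 1.70, 1.25 and 2.12 CPM to 4.57, 4.58 and 4.07 CPM (1.38, SE 0.20, adjusted p = 0.000519).

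HERC5 had 0 counts in all 3 vector control libraries and 67, 71 and 83 counts in the libraries labelled hFABP1as (1.63, 1.59 and 1.48 CPM). Against a floor of 3 counts over the vector control group it was at least 73.2-fold higher (adjusted p = 2.77e-05). HERC5 reached the filter's level only in the libraries labelled hFABP1as. HERC6, its neighbour on chromosome 4 and a close relative, was present in both groups, at 2.01, 2.47 and 2.49 CPM and at 5.93, 5.68 and 5.76 CPM, 2.49-fold higher (log2 fold change 1.32, SE 0.14, adjusted p = 7.65e-05). Thus 4 of the 5 genes of this group rose and ISG15 itself fell, beside 27.7% higher, 27.3% lower and 55.0% called over all tested genes. The groups did not overlap in any of the 5, as for 62.7% of all tested genes. ISG15 is among 12 members whose exons overlap a gene on the opposite strand, the others being IRF1, IRF3, EIF2AK2, OAS1, IFITM3, MX1, GBP4, PARP9, DTX3L, TRIM25 and XAF1, and reads of the overlap could have been counted for either gene. The same limit holds for IRF9, IFIT2, TRIM25 and SP100, whose exons overlap another gene on the same strand.

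Guanylate-binding proteins, large GTPases that coat intracellular pathogens and are known as targets of type II interferon, had 4 members on the list. Of these 3 rose from under 1 CPM and 1 had no counts, where 27.7% of all tested genes rose. GBP1 was at 0.903, 0.490 and 0.699 CPM in the vector control and at 3.69, 4.16 and 3.54 CPM in the other group, 5.35-fold higher (log2 fold change 2.42, SE 0.24, adjusted p = 4.67e-05). GBP2 was at 0.643, 0.196 and 0.792 CPM against 3.28, 3.60 and 3.66 CPM, 6.36-fold higher (2.67, SE 0.37, adjusted p = 0.000362). GBP3 rose from 0.382 ± 0.158 to 1.02 ± 0.211 CPM (1.40, SE 0.37, adjusted p = 0.0114; SD, n = 3), while GBP4 in the same chromosome 1 cluster stayed at 0 counts. GBP2 and GBP3 reached the filter's level only in the libraries labelled hFABP1as. GBP1 and GBP3 are close copies, so part of their reads could be exchanged. The dynamin-like GTPases MX1 and MX2, classic type I and type III interferon targets that trap viral particles, did not pass: MX1 stood at 0.583 ± 0.190 and 0.410 ± 0.271 CPM and MX2 at 0.948 ± 0.242 and 0.911 ± 0.0560 CPM.

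**Figure D4:**
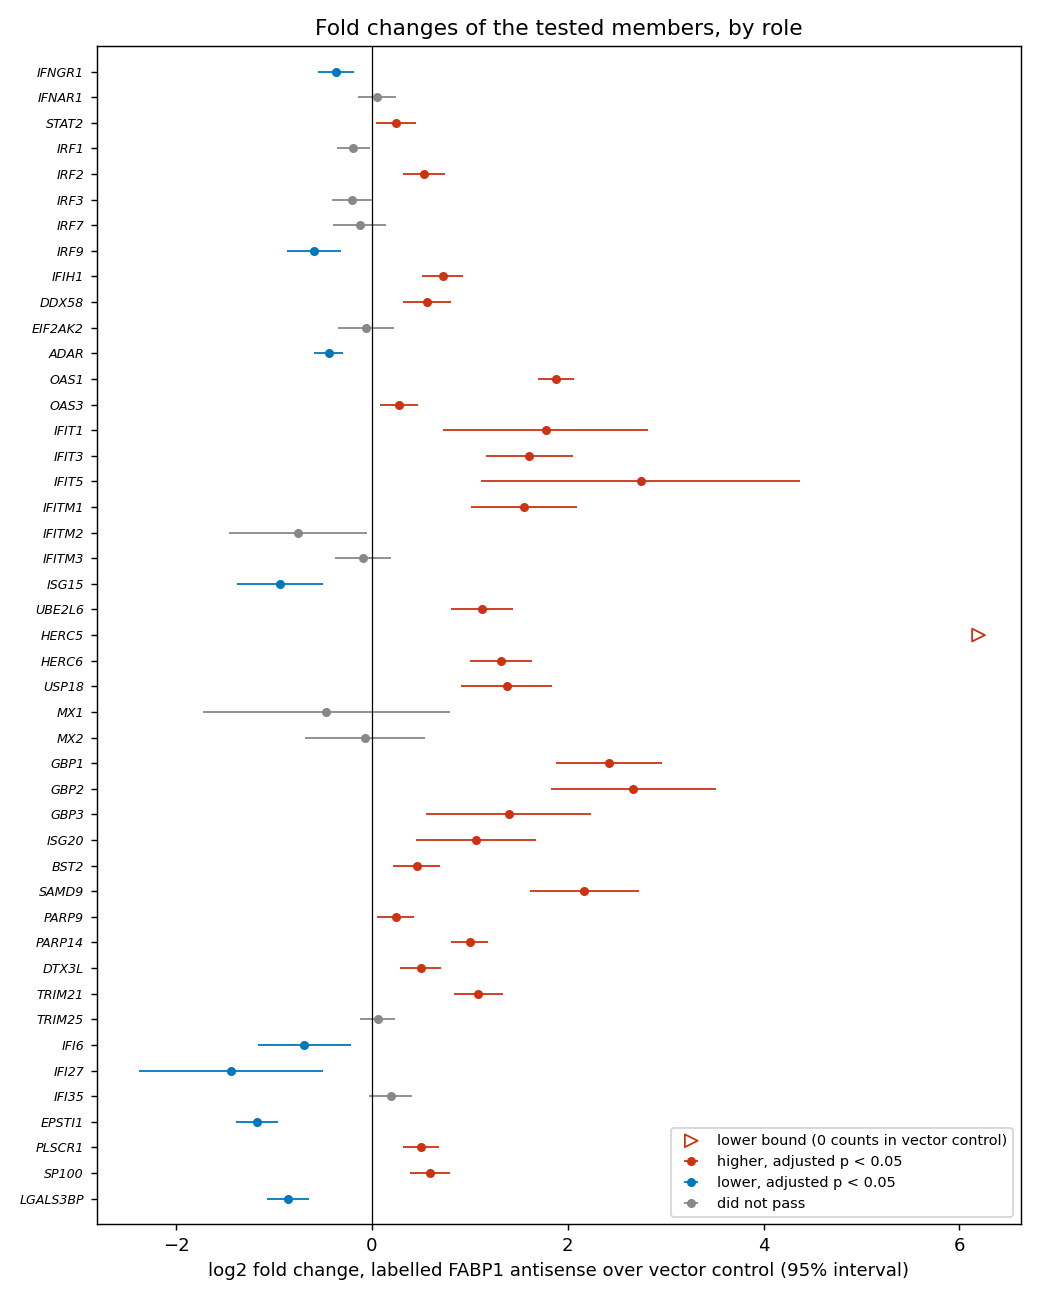
Log2 fold change of the libraries labelled hFABP1as over the vector control for the 45 tested members, in the order of their roles, with 95% intervals. Red points are higher and blue points lower at an adjusted p under 0.05, grey points did not pass, and the open triangle is the lower bound of HERC5. The IFIT, GBP and HERC genes lie to the right of 0, and ISG15, IFI6, IFI27, EPSTI1 and LGALS3BP to the left.

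Of the other direct effectors, SAMD9, a cytoplasmic restriction factor of poxviruses, was at 0.556, 0.563 and 0.419 CPM in the vector control and at 1.94, 2.42 and 2.60 CPM in the other group. All 3 libraries of the latter were higher, by 4.50-fold (log2 fold change 2.17, SE 0.24, adjusted p = 0.000107). Its neighbour and paralogue SAMD9L had 4 and 35 counts over the groups (a ratio of 8.70, counting interval 3.11 to 33.7). ISG20, an exonuclease of viral RNA, rose from 0.655 ± 0.143 to 1.38 ± 0.197 CPM (1.06, adjusted p = 0.00907). BST2, the tetherin that holds budding virus at the cell surface, rose from 58.4 ± 8.0 to 80.4 ± 5.06 CPM (0.46, SE 0.11, adjusted p = 0.00585; SD, n = 3). RSAD2 (viperin) and CMPK2, neighbours on chromosome 2 that together act on the nucleotide pool of the virus, were near 0, with 4 and 2 counts and with 8 and 17 counts over the groups.

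Of the 6 ubiquitin and ADP-ribose genes 4 rose, 1 did not pass and 1 was not tested, where 27.7% of all tested genes rose. TRIM21, a cytosolic antibody receptor and ubiquitin ligase, was at 12.3, 12.6 and 9.67 CPM in the vector control and at 25.6, 25.1 and 22.9 CPM in the other group, 2.13-fold higher (log2 fold change 1.09, SE 0.11, adjusted p = 6.3e-05). PARP14, an ADP-ribosyltransferase, rose from 26.4 ± 1.90 to 52.7 ± 3.02 CPM (1.00, just under the 2-fold limit, SE 0.08, adjusted p = 1.80e-05), and DTX3L, a ubiquitin ligase, from 46.8 ± 5.66 to 66.1 ± 0.758 CPM (0.50, adjusted p = 0.00177; SD, n = 3). PARP9, which binds DTX3L, rose from 23.0 ± 0.834 to 27.3 ± 2.11 CPM (0.24, adjusted p = 0.0349), a call lost in 6 of 12 alternative fits. Those were the fits without vector control library 2 (adjusted p = 0.128) or 4 (0.0749), without hFABP1as-labelled library 2 (0.128) or 4 (0.115), with a block on the library numbers (0.106) and with no filter (0.0565). PARP9 and DTX3L overlap on opposite strands, so their counts may share reads. TRIM25, the ligase that activates RIG-I, did not pass at 131 ± 10.8 and 137 ± 5.31 CPM, and TRIM22 was not tested at 29 and 22 counts over the groups.

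The last group, 10 IFI genes and other induced genes, held 4 of the 8 falls, with 2 rises among its 7 tested members. Over all tested genes 27.3% fell and 27.7% rose. EPSTI1, an induced gene of epithelial and stromal cells, was at 14.7, 13.2 and 13.1 CPM in the vector control and at 6.27, 5.84 and 6.15 CPM in the other group, 2.25-fold lower (log2 fold change -1.17, SE 0.09, adjusted p = 1.27e-05). LGALS3BP was at 248, 225 and 278 CPM against 145, 143 and 127 CPM, 1.81-fold lower (-0.85, SE 0.09, adjusted p = 9.26e-05). The groups overlapped for neither gene.

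IFI27, a mitochondrial protein widely used as an interferon marker in blood, was at 1.02, 0.563 and 0.792 CPM against 0.267, 0.447 and 0.178 CPM (log2 fold change -1.44, SE 0.42, adjusted p = 0.0168). IFI27 reached the filter's level only in the vector control. IFI6, its relative, was at 2.90, 2.20 and 2.40 CPM against 1.77, 1.63 and 1.28 CPM (-0.69, SE 0.21, adjusted p = 0.0203). Both calls were lost without vector control library 2 (adjusted p = 0.0770 and 0.0798) and without hFABP1as-labelled library 4 (0.0632 and 0.0704), and that of IFI27 also without hFABP1as-labelled library 2 (0.0548). The nuclear body gene SP100 rose by 0.59 (SE 0.09) from 12.7 ± 1.21 CPM and the scramblase gene PLSCR1 by 0.50 (SE 0.08) from 24.5 ± 1.01 CPM (SD, n = 3). IFI35 did not pass (0.19, 95% interval -0.03 to 0.41), and XAF1, a pro-apoptotic gene, had 6 and 3 counts over the groups.

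Several members lie next to each other on the chromosomes, in 10 groups that hold 27 of the 57 (at most 1 other protein-coding gene between them). The 95% intervals of OAS1 and OAS3 did not overlap, while those of IFIT1 (0.73 to 2.82), IFIT3 (1.16 to 2.06) and IFIT5 (1.12 to 4.37) did, as did those of GBP1 (1.88 to 2.96), GBP2 (1.83 to 3.51) and GBP3 (0.56 to 2.24). Those of MX1 (-1.73 to 0.80) and MX2 (-0.68 to 0.55) also overlapped. The interval of IFITM1 (1.01 to 2.09) lay above those of IFITM2 (-1.46 to -0.05) and IFITM3 (-0.38 to 0.20). That of PARP14 (0.81 to 1.19) lay above those of PARP9 (0.05 to 0.43) and DTX3L (0.29 to 0.71). The lower bound of HERC5 (6.19) lay above the interval of HERC6 (1.00 to 1.64). The remaining groups held too few tested members to compare. For 28 of the 34 called members the value was also set beside the median log2 fold change of its 100 nearest genes in the gene order whose mean log2 CPM was 3 or more. OAS3 (0.28 beside 0.44) and STAT2 (0.25 beside 0.40) lay under that median, and ADAR (-0.44 beside -0.38) and PARP9 (0.24 beside 0.20) lay within 0.1 of it. For OAS1 the neighbours' median was 0.44, for GBP1 and GBP2 -0.31, for EPSTI1 -0.32 and for IFI6 -0.47.

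The remaining parts of the pathway were read from a list of 81 further genes. None of its 8 interferon genes (IFNA1, IFNB1, IFNE, IFNK, IFNG, IFNL1, IFNL2 and IFNL3) had a count in any library, at a floor of 0.0212 and 0.0211 CPM per group. Of 57 tested genes of the list 19 rose (33.3%), 13 fell (22.8%) and 25 did not pass, with a median log2 fold change of 0.04. The 56.1% called is near the 55.0% of all tested genes, where 27.7% rose and 27.3% fell. Of the genes that rose, IFI16, TNFSF10 and NLRC5 reached the filter's level only in the libraries labelled hFABP1as. Among the receptor chains, named after their values were seen, IFNAR2 rose from 20.7 ± 0.140 to 29.8 ± 1.54 CPM (SD, n = 3), while the type III receptor chains IFNLR1 (16.3 ± 0.973 to 12 ± 0.464 CPM) and IL10RB (33.6 ± 2.50 to 26.4 ± 0.869 CPM) and the type II chain IFNGR2 (44.3 ± 0.598 to 36.6 ± 0.957 CPM) fell.

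The largest rise of that list was of IFI16, a nuclear DNA sensor, with 0, 2 and 0 counts in the vector control and 439, 550 and 698 in the libraries labelled hFABP1as (10.7, 12.3 and 12.4 CPM). The ratio of depth-scaled counts was 839 (counting interval 232 to 6931; adjusted p = 1.85e-07). B2M, the light chain of MHC class I, rose from 182 ± 21.7 to 397 ± 4.78 CPM (1.13 ± 0.09 on the log2 scale, SE), and NMI and SP140L, next in size at a mean of at least 1 on the log2 CPM scale, by 1.03 and 0.95 on that scale. Under that level TNFSF10 (20.5-fold), NLRC5 (17.8-fold) and PSMB9 (3.15-fold) rose more than B2M, all from under 1 CPM. No tested gene of the list under that level was called lower. Among its genes too low to be tested, APOBEC3G had 14, 18 and 6 counts in the vector control and 0 in every library labelled hFABP1as. LY6E had 56 and 9 counts over the groups, while others, such as TLR3 (3 and 18) and DDX60 (0 and 28), went the other way. The largest falls at a mean of at least 1 on the log2 CPM scale were of PARP10 (-0.67), ZNFX1 (-0.59), the signalling inhibitor gene SOCS3 (-0.55) and the nucleotide hydrolase gene SAMHD1 (-0.54).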

How the data were processed

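RNA of 6 Caco-2 libraries, 3 per group, was extracted with TRIzol and prepared with the TruSeq Stranded mRNA kit, per the labels' protocols. Per the submitters' processing notes the tools were StringTie 1.3.4d, HISAT2 2.1.0, Bowtie2 2.3.4.1, Trimmomatic 0.38 and bcl2fastq, and the build was GRCh37. The sources used here do not give the strand setting of the counting, and 12 members have exons that overlap a gene on the opposite strand (GENCODE 29). Exons of IRF9, IFIT2, TRIM25 and SP100 overlap another gene on the same strand. The deposited table gives unnormalized read counts per gene and library, per the file headers, and these deposited counts were used. The other 12 value columns (FPKM and TPM) were not used. Headers number libraries 2 to 4 and labels 1 to 3, so columns were matched to groups only.

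The members and lists were chosen with earlier results of these data known. Counts were filtered (filterByExpr), TMM-scaled and tested with edgeR 4.0.16 in R 4.3.3 (glmQLFit, glmQLFTest, group as the only term), Benjamini-Hochberg adjusted over all tested genes, and the procedure was tested on simulated data. SE is the absolute log2 fold change over the square root of F. Counting intervals are exact 95% binomial intervals, and these and the floors cover counting error only. Pairs of libraries within a group gave a chi-square of 13.6 to 39.3 per degree of freedom, above sampling noise. Transcript lengths came from GENCODE 29 by RefSeq accession, gene order and promoters from RefSeq GRCh38.p14. Per-library values were always given for members with a change of at least 2-fold at a mean log2 CPM of at least 1. They were also given for the largest change of each role and for members at 0 counts in 1 group. The pathway list was read for its 4 largest rises and falls at that level, and 1 further gene that the rule names is not reported here. Others were named after their values were seen. Protein sequences were not used here. Alternatives were other scalings and filters, DESeq2 1.42.0, a block on the header numbers and leaving out each library. Figures used Python 3.11.15 and matplotlib 3.10.9.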

Additional observations from a re-analysis of the deposited data

How the results depend on the processing

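Over 12 alternative fits, 28 of the 34 called members kept their call and direction in every fit that tested them, 6 lost the call in at least 1 fit (IFI27, IFI6, IFIT1, OAS3, PARP9 and STAT2), and no tested member changed sign with a call. Outside the 34, IRF3 fell in 1 fit, and 3 members that the filter had removed rose in others: IFIT2 without the filter (adjusted p = 0.0436) and without vector control library 3 (0.0397) or hFABP1as-labelled library 4 (0.0132), OASL without the filter (0.0395) and with DESeq2 (0.0417), and SAMD9L without vector control library 4 (0.00773) or hFABP1as-labelled library 3 (0.0327). Counts of members higher and lower were 26 and 8 as reported, 26 and 8 with RLE size factors or library size alone, 26 and 8 without the filter (IFIT2 and OASL in place of STAT2 and PARP9), 23 and 7 with a stricter filter (at least 1 CPM in 3 libraries) and 25 and 8 with DESeq2. Leaving out 1 library gave 23 to 26 higher and 6 to 9 lower. For the pathway list these fits gave 16 to 18 higher and 10 to 14 lower, for all tested genes 6983 to 8059 called, and for FABP1 a log2 fold change of 0.05 to 0.27. The pathway list gave 20 higher and 15 lower without the filter and 19 and 16 with DESeq2, beside 19 and 13 as reported. The ISRE core with 1 further base, C or G, at its end was present in the same number of member promoters, 27, and in 1.90% of all promoters. With the replicate block on the header numbers 23 members were higher and 8 lower, 18 and 9 genes of the pathway list, 6661 genes in all, and FABP1 stood at 0.17. Deviations of same-numbered libraries from their group means correlated at 0.04, -0.19 and -0.31, so no pairing by number was seen. Differently numbered libraries of the groups correlated at -0.19 to 0.33, highest for vector control library 3 with hFABP1as-labelled library 4. A batch shared under another pairing was not tested. At this depth 12 members could not be tested.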
